A study of Homo sapiens with 6 samples.

Results

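The genes described here encode the human DNA topoisomerases and the enzymes that remove them when they stay bound to DNA. They are TOP1, TOP1MT, TOP2A, TOP2B, TOP3A, TOP3B, TDP1 and TDP2, chosen by name, 8 of the 20098 protein-coding genes annotated on chromosomes 1 to 22 and X. For each gene the END-seq peaks over the gene body and 5 kb on each side, called the gene window here, were counted by strand, library and time of treatment. The measurements concern breaks in the DNA of these genes and not their RNA or protein.

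END-seq captures the free ends of DNA double-strand breaks (DSBs) by ligating an adapter to them in agarose-embedded cells. A break with both ends open gives reverse-strand reads on its left and forward-strand reads on its right. The cells were HCT116, a colorectal carcinoma line, and all of them received murine pre-B cells as a spike-in. The 6 samples were 2 untreated libraries (Ctrl), 2 libraries of cells given 10 µM camptothecin (CPT) for 10 min (CPT10) and 2 libraries of cells given 10 µM CPT for 20 min (CPT20), each a biological replicate. The values 10 and 20 appear in the sample names as µM. The protocol and the design text speak instead of minutes at a dose of 10 µM, which is the reading used here. The values come from the peak lists of the treated libraries. The Ctrl libraries were not analysed here and entered only as the input of the peak calling, so no level measured the same way in untreated cells stands beside the values. Peak positions hold no expression markers with which the cell line could be checked.

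Topoisomerases relieve the twist that transcription and replication put into DNA. TOP1 cuts a single strand and stays joined to its 3′ end until the strand is resealed, and CPT traps it in that state. TOP1MT does the same work on mitochondrial DNA. TOP2A, the form of dividing cells, and TOP2B, the form also found in resting cells, cut both strands and pass another duplex through the gap. TOP3A and TOP3B act on single-stranded DNA, the former in the complex that dissolves joined DNA molecules and the latter also on RNA. TDP1 frees 3′ ends from trapped TOP1, and TDP2 frees 5′ ends from trapped TOP2.

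The 8 genes lie on 7 chromosomes of hg19. TOP1 (ENSG00000198900, chr20:39657462-39753127, plus strand) and TDP1 (ENSG00000042088, chr14:90421283-90511108, plus strand) are the longest, and TDP2 (ENSG00000111802, chr6:24650207-24667158, minus strand) is the shortest at 17.0 kb. TOP2A (ENSG00000131747, chr17:38544777-38574148), TOP2B (ENSG00000077097, chr3:25639469-25706400), TOP3A (ENSG00000177302, chr17:18174742-18218321), TOP3B (ENSG00000100038, chr22:22311397-22337210) and TOP1MT (ENSG00000184428, chr8:144386554-144442149) are transcribed from the minus strand. The windows of TOP1 and TOP2A hold no part of another protein-coding gene. Those of the other 6 also hold part of ZNF696 (TOP1MT), RARB (TOP2B), MIEF2 and SMCR8 (TOP3A), PPM1F (TOP3B), EFCAB11 (TDP1) or KIAA0319 and ACOT13 (TDP2), and a peak there belongs to both windows.

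The lists held between 286491 and 826744 peaks each. CPT20 replicate 2 had the shortest lists of both strands, and CPT10 replicate 1 had a reverse list longer than its forward list. The 8 windows together held 361 and 239 peaks at 10 min (replicates 1 and 2) and 380 and 155 at 20 min. CPT20 replicate 2, with the shortest lists, held the fewest and carries the widest counting error. In the fits every count is set against the length of its own list. A listed peak is a call past a threshold, so the values are numbers of calls and not amounts of broken DNA.

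Peak density was above the genome-wide density of the same lists in all 4 libraries for 7 of the 8 genes. How many of all protein-coding windows were above it was not counted, so this does not set the 8 genes apart. The ratio of peaks per kb in the window to peaks per kb over the genome was highest for TOP2A. It was 1.73 and 1.37 in the CPT10 libraries and 2.72 and 2.39 in the CPT20 libraries. TOP3A followed with a mean of 1.80 ± 0.51 (SD, n = 4) and TOP1 with 1.74, 1.53, 2.00 and 1.64 in the same order of libraries. In TOP2A both CPT20 values lay above both CPT10 values, while in TOP3A and TOP1 the times overlapped. The other 5 genes had means over 4 libraries of 1.43 ± 0.35 for TDP2, 1.39 ± 0.48 for TOP1MT, 1.28 ± 0.19 for TDP1, 1.26 ± 0.24 for TOP2B and 1.11 ± 0.55 for TOP3B (SD, n = 4). TOP3B was the exception to the direction, with 3 peaks and a ratio of 0.41 in CPT20 replicate 2. No gene was separated from the next in this order, since the ranges of all neighbours overlapped.

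**Figure D1:**
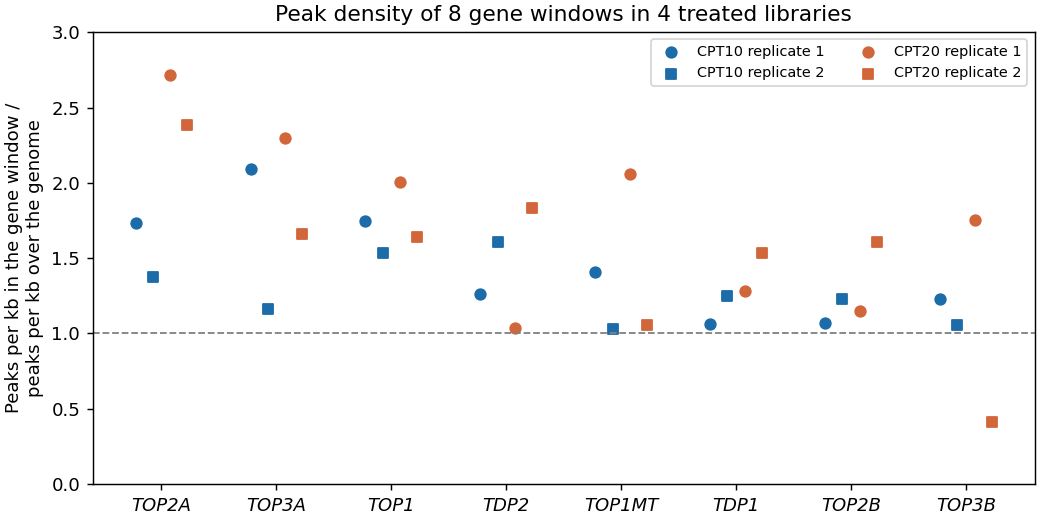
Peaks per kb in each gene window divided by peaks per kb over the genome (vertical axis, a linear ratio) in the 4 treated libraries, with the genes ordered by their mean. Points are single libraries and the dashed line marks the genome-wide density; TOP2A reaches 2.72 and TOP3B falls to 0.41.

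The first comparison asked whether the genes held more peaks than the DNA around them, taken as 500 kb on each side. TOP1, TOP2A, TOP2B and TOP3A did, whereas TOP1MT, TOP3B, TDP1 and TDP2 did not pass the test (limma with Benjamini-Hochberg adjustment over 19927 genes). Of all genes tested 25% were called, 17.7% with the higher and 7.25% with the lower density in the gene window, against 4 of the 8 genes here. The median log2 ratio was 0.44 over the 8 genes and 0.05 over all genes. With the replicate number as a block TOP1MT was called as well, with the lower density in its window (adjusted p = 0.0208, limma). TDP1 was called with the higher (adjusted p = 0.0258, limma), which made 6 of the 8 genes in all. The block also raised the number of genes called over the genome, as given in the last section.

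In TOP1, the target of CPT, the window held 8.71 and 5.68 peaks per 10 kb at 10 min (replicates 1 and 2) and 8.61 and 3.31 at 20 min. The surroundings held 4.79, 3.92, 4.69 and 1.93. The window was denser in every library, and the log2 ratios of the libraries spanned 0.51 to 0.85. The mean was 0.73 (SE 0.09, adjusted p = 2.1e-05, limma), a 1.66-fold higher density.

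TOP3A, the partner of BLM in dissolving double Holliday junctions, had the largest ratio of the 8. Its window held 10.5, 4.29, 9.89 and 3.36 peaks per 10 kb in the 2 CPT10 and the 2 CPT20 libraries, against 5.05, 2.62, 5.02 and 1.5 around it. The window was again denser in every library, and the mean log2 ratio was 0.90 (SE 0.12, adjusted p = 2.29e-05, limma). In 50 kb steps to its right, steps 3 and 4 held no peak in CPT10 replicate 1 and CPT20 replicate 2. Only unknown reference bases were left out of the lengths, so such empty DNA lowers the density of the surroundings.

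Of the type II enzymes, TOP2A held 8.64, 5.08, 11.7 and 4.83 peaks per 10 kb against 6.32, 3.64, 6.23 and 2.45 around it. Its log2 ratios of 0.41 and 0.43 at 10 min lay below those of 0.85 and 0.90 at 20 min, with a mean of 0.65 (SE 0.12, adjusted p = 0.000955, limma). The difference between the times, 0.46 (SE 0.25), did not pass the test (adjusted p = 0.998, limma). TOP2B held 5.33, 4.55, 4.94 and 3.25 peaks per 10 kb against 4.45, 3.47, 3.66 and 1.88, a mean log2 ratio of 0.44 (SE 0.12, adjusted p = 0.0122, limma). The TOP2B call was lost with the genome-wide density as reference (adjusted p = 0.131, limma), with lists of equal length (0.325), at a −log10 q of at least 3 (0.0636) and without CPT10 replicate 1 (0.0929) or 2 (0.141).

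TDP1 and TDP2 had positive log2 ratios in all 4 libraries, with means of 0.29 (SE 0.11, adjusted p = 0.0694, limma) and 0.44 (SE 0.19, adjusted p = 0.109). TDP2 rests on 10 to 17 peaks per library, and its libraries ranged from 0.04 to 0.79. TOP3B had ratios of 0.13, 0.22 and 0.49 in 3 libraries and -0.95 in CPT20 replicate 2. In 50 kb steps to its left, step -9 held no peak in any library. TOP1MT had the lowest mean of the 8, at -0.34 (SE 0.13, adjusted p = 0.0757, limma). Its window held 7.01, 3.81, 8.84 and 2.13 peaks per 10 kb, while the surrounding DNA held 7.94, 5.38, 8.80 and 3.62. These surroundings were denser than those of any other gene of the 8 in every library, and against the genome-wide density the TOP1MT value turned to 0.39 (adjusted p = 0.192, limma). Leaving out CPT20 replicate 1 brought TOP1MT (-0.52, adjusted p = 0.000557), TDP1 (0.42, adjusted p = 0.00191) and TDP2 (0.63, adjusted p = 0.0107) past the threshold in limma. TDP2 also passed with lists of equal length (0.76, adjusted p = 0.00594) and TDP1 with 200 kb of surroundings (0.33, adjusted p = 0.0495, limma). The number of genes called over the genome also moved with the library left out, as given in the last section.

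The second comparison set the first 5 kb of each gene against the rest of its body, since the study asks where breaks lie in transcribed genes. None of the 8 genes was called (limma, Benjamini-Hochberg over 13828 genes), against 3.38% of all genes tested, 2.96% with the start higher. The median log2 ratio was 0.40 over the 8 genes and 0.10 over all genes. TOP1 came closest, with 7, 6, 9 and 4 peaks in its first 5 kb and 78, 49, 75 and 29 in the remaining body. Per 10 kb this was 14, 12, 18 and 8 at the start against 8.60, 5.40, 8.27 and 3.20 in the rest. The start of TOP1 was denser in every library, and the mean log2 ratio of 0.74 (SE 0.24) had an adjusted p of 0.0682 (limma). With peaks limited to a −log10 q of at least 3, TOP1 (0.79, adjusted p = 0.0308, limma) and TOP2A (0.78, adjusted p = 0.0392) passed. Both also passed without CPT20 replicate 1. The number of genes called over the genome was higher at that −log10 q limit too and moved with the library left out, as given in the last section.

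TOP2A had log2 ratios of start over rest of 0.35, 0.24, 0.42 and 1.28, with a mean of 0.57 (SE 0.25, adjusted p = 0.191, limma). The ratios of TOP1MT, TOP2B, TOP3B and TDP1 were positive in all 4 libraries too, with means of 0.33 to 0.47. Those of TOP3A were positive in 3 libraries, and those of TDP2 scattered from -0.84 to 1.00 around a mean of -0.01.

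**Figure D2:**
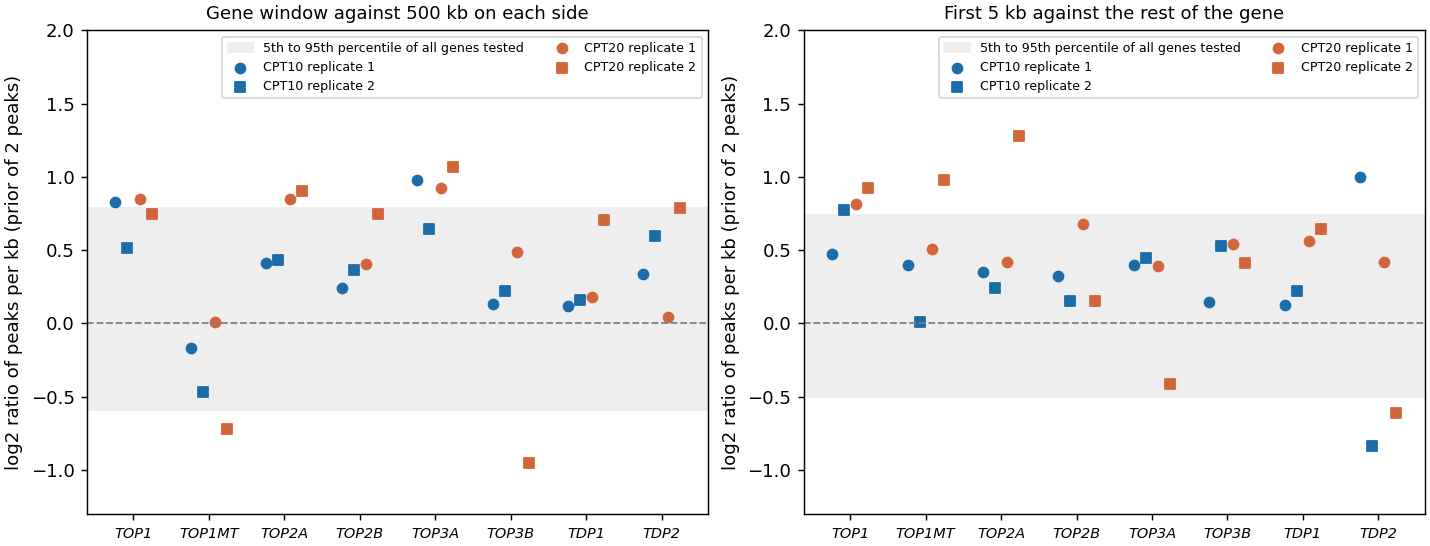
Left, log2 ratio of peaks per kb in the gene window over 500 kb on each side; right, log2 ratio of peaks per kb in the first 5 kb of the gene over the rest of its body. Points are the 4 treated libraries and the grey band spans the 5th to 95th percentile of the fitted values of all genes tested; TOP1, TOP2A, TOP2B and TOP3A are above 0 in every library in the left plot, and no gene was called in the right plot.

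The third comparison concerned the balance of forward and reverse peaks, each per listed peak of its own strand. A break read from both of its ends adds to both strands, so an imbalance reports ends listed on 1 strand only. TDP1 and TOP2B had more forward peaks, TOP3A and TOP1 had more reverse peaks, and the remaining 4 genes did not pass the test (limma, Benjamini-Hochberg over 17931 genes). Imbalance was common in the genome, with 27.8% of all genes called, 13.9% in each direction. The direction did not follow the strand of transcription, since TDP1 and TOP1 are both transcribed from the plus strand and TOP2B and TOP3A both from the minus strand.

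TDP1, which releases trapped TOP1 from 3′ ends, had 36 forward against 17 reverse peaks in the first CPT10 replicate and 31 against 15 in the second. At 20 min it had 38 against 17 and 26 against 5. Forward peaks exceeded reverse peaks in every library and in each of 4 equal parts of the window, where the sums over libraries were 28 to 36 forward and 11 to 17 reverse peaks. The mean log2 ratio was 1.39 (SE 0.23, adjusted p = 0.00117, limma), a 2.62-fold excess. It was at the 98.2nd percentile of all genes tested.

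TOP3A was the reverse case, with 17 forward against 39 reverse peaks and 5 against 18 at 10 min. At 20 min it had 18 against 35 and 3 against 15. Reverse peaks exceeded forward peaks in every library and in each of the 4 parts. The mean log2 ratio was -1.26 (SE 0.25, adjusted p = 0.00344, limma).

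TOP1 had 31 forward against 61 reverse peaks and 19 against 41 at 10 min, and 41 against 50 and 10 against 25 at 20 min, a mean log2 ratio of -0.76 (SE 0.20, adjusted p = 0.0157, limma). TOP2B had 20 forward against 21 reverse peaks and 29 against 6 at 10 min, and 25 against 13 and 14 against 11 at 20 min. After scaling to the lists its log2 ratios were 0.37, 1.95, 0.83 and 0.31, with a mean of 0.86 (SE 0.27, adjusted p = 0.0296, limma). Both genes kept their direction in every library, and for TOP2B the single library CPT10 replicate 2 stood far above the rest.

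All 4 calls were lost without CPT10 replicate 1, when the adjusted p values were 0.144 to 0.170, and without CPT10 replicate 2, when they were 0.200 to 0.389 (limma). In both cases no gene of the genome was called. The calls of TOP1 (0.0851), TOP2B (0.128) and TOP3A (0.0562) were also lost when genes with few peaks were kept in the fit. The TOP2B call was lost with a prior of 0.5 peaks (0.0586) and without CPT20 replicate 1 (0.0576) too, and the TOP1 call without CPT20 replicate 2 (0.0751, limma). No direction changed in any of these fits.

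**Figure D3:**
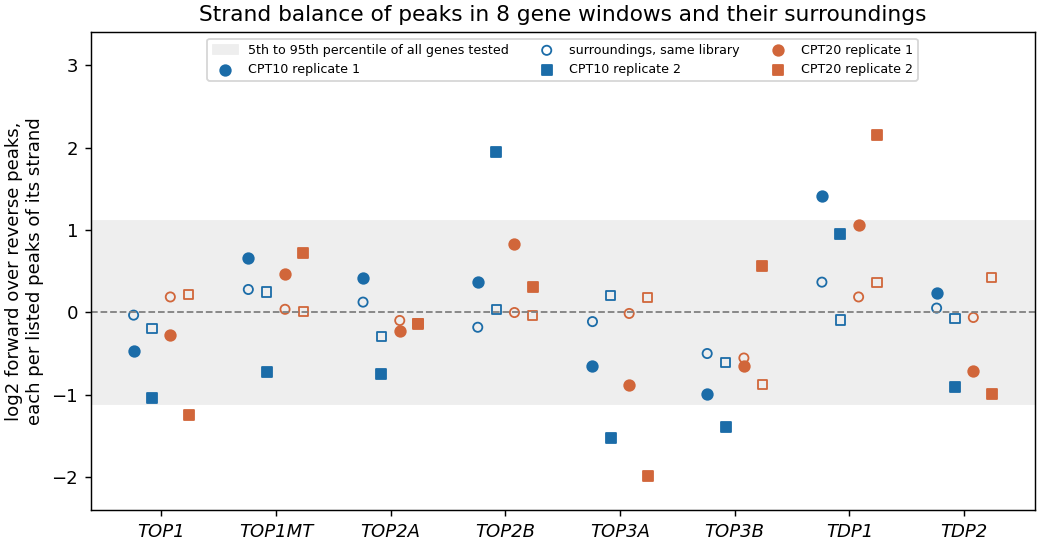
log2 ratio of forward over reverse peaks, each per listed peaks of its strand, in the gene windows (filled symbols) and in 500 kb on each side of them (open symbols) for the 4 treated libraries. The grey band spans the 5th to 95th percentile of the fitted values of all genes tested; TDP1 is above 0 and TOP3A below 0 in every library.

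TOP2A was near balance, with a mean log2 ratio of -0.18 and libraries on both sides of 0. TOP1MT had 25 forward and 21 reverse peaks, 9 and 16, 34 and 24, and 9 and 5 in the 4 libraries, a mean of 0.28 (adjusted p = 0.432, limma). TOP3B had reverse excess in 3 libraries and 2 forward against 1 reverse peak in CPT20 replicate 2, with a mean of -0.62 (adjusted p = 0.128, limma). It passed with lists of equal length (-1.02, adjusted p = 0.0229) and without CPT20 replicate 2 (-0.92, adjusted p = 0.0404, limma). TDP2 had 8 forward and 9 reverse peaks, 5 and 11, 4 and 8, and 3 and 7, a mean of -0.59 (adjusted p = 0.153, limma). The DNA around TOP3B leaned the same way in every library, from -0.88 to -0.50, and relative to it TOP3B had a log2 ratio of 0.02. Relative to their surroundings the 4 called genes held their direction. TDP1 was at 1.19 (adjusted p = 0.000837), TOP2B at 0.91 (0.0133), TOP3A at -1.33 (0.00123) and TOP1 at -0.80 (0.00848, limma). The surroundings had mean log2 ratios of 0.20 around TDP1, -0.05 around TOP2B, 0.06 around TOP3A and 0.04 around TOP1. Subtracting values this small could change the ratios little. Around TOP1 and TOP2B the sides leaned opposite ways, as described below.

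Steps of 50 kb along the chromosome showed that the imbalance of these genes was not alike. TOP1 lay where the balance turned. All 10 steps on its left had a forward excess in every library, with means of 0.63 to 1.51, and 9 of the 10 steps on its right had a mean reverse excess, down to -1.63. The sides cancelled in the sum over the surroundings, which was -0.03, -0.20, 0.19 and 0.21 in the 4 libraries. TOP2B lay at a similar turn, with a mean forward excess in 9 of 10 steps on its left and a mean reverse excess in all 10 steps on its right, where the lowest was -1.39. TDP1 stood apart from its immediate neighbours, at 1.39 against -0.08 in the step on its left, where CPT20 replicate 2 alone was above 0, and -0.49 in that on its right. TOP3A had the lowest value of its region, and the adjoining steps leaned the same way, at -0.89 on the left and -1.10 on the right. These steps are a description and were not tested.

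**Figure D4:**
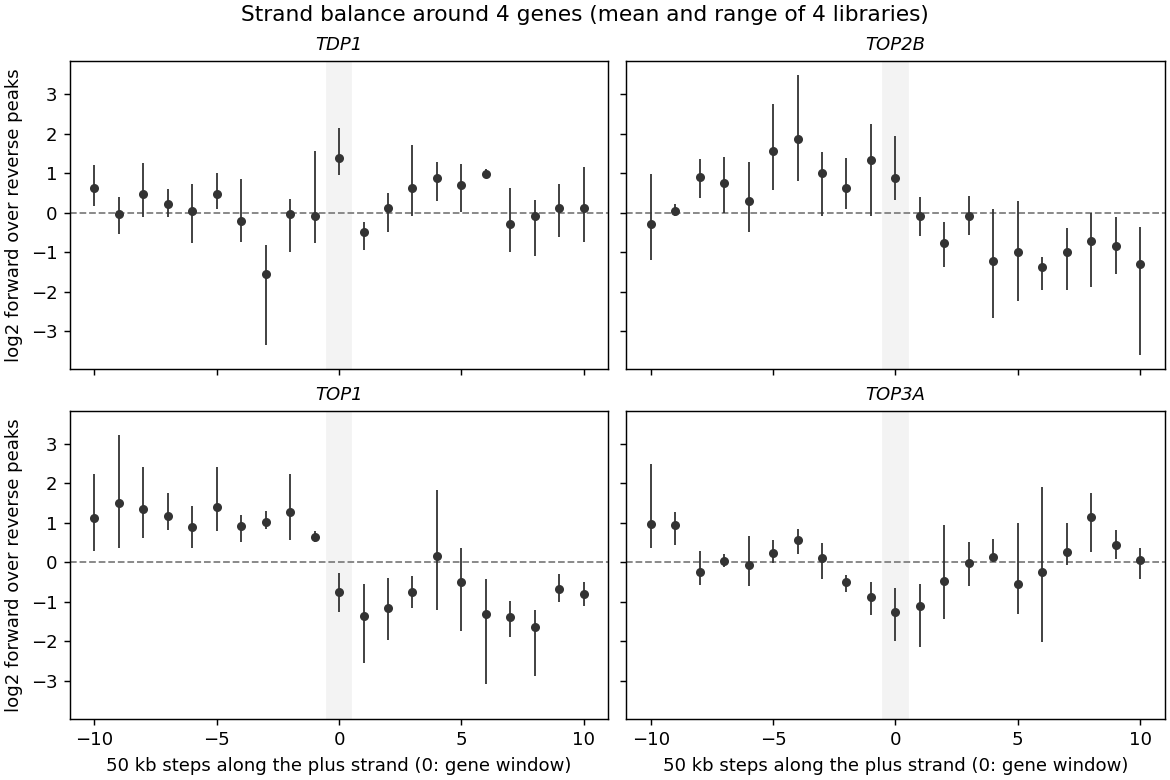
log2 ratio of forward over reverse peaks in 50 kb steps on each side of 4 gene windows (grey, position 0), as the mean (points) and range (lines) of the 4 treated libraries. Around TOP1 and TOP2B the sign changes from the left to the right side, whereas TDP1 is set apart from its neighbours and TOP3A lies within a stretch of reverse excess.

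The fourth comparison was between 10 and 20 min of CPT. Relative to the lengths of the lists, none of the 8 genes was called (limma, Benjamini-Hochberg over 17931 genes), and 0% of all genes were called, with 475 genes at an unadjusted p under 0.05. TOP2A differed most, with 34 and 20 peaks at 10 min and 46 and 19 peaks at 20 min. On the log2 scale of peaks per 100000 listed peaks these were 1.37 and 1.07 against 1.99 and 1.81, so the times did not overlap. The difference of 0.68 (SE 0.29) had an unadjusted p of 0.0341 and an adjusted p of 1.00 (limma). The other differences lay between -0.32 for TOP3B and 0.31 for TOP3A, where the median of all genes was 0.09. The differences between the times in strand balance, in start over rest and in window over surroundings passed the test for none of the 8 genes either.

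Pairs of a reverse peak and a forward peak that overlapped or followed within 150 bp are the pattern that a break with both ends captured would leave. Unrelated peaks of both strands that lie close give the same pattern, and their share was not tested. Such pairs numbered 49 and 17 in the 8 windows at 10 min and 51 and 5 at 20 min. These counts were not adjusted for the density of peaks in the windows. The means were 33.0 ± 22.6 and 28.0 ± 32.5 (SD, n = 2 each), and the exact two-sided permutation test gave p = 1.00, where the smallest p this design allows is 0.333. Per Mb the windows held 97.3 and 33.7 sites at 10 min and 101 and 9.93 at 20 min, against 36.0, 19.2, 30.1 and 6.56 over the genome, so the ratio was 2.70, 1.76, 3.36 and 1.51.

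TOP1 held 11, 5, 12 and 0 paired sites in the 4 libraries, TOP3A 9, 0, 9 and 0, and TOP2A 8, 1, 9 and 2. TOP1MT held 5, 2, 8 and 2, TDP1 held 5, 4, 3 and 0, TOP3B held 4, 2, 3 and 0, TDP2 held 4, 2, 3 and 0, and TOP2B held 3, 1, 4 and 1. Replicate 1 had the most sites of each time in all 8 genes.

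Few of these sites recurred in the other replicate of their time. At 10 min 4 of the 8 windows held a replicated site, against 11.5% of all gene windows, and at 20 min 2 did, against 11% of all. At either time these were 4 windows, TOP1, TOP1MT, TOP2A and TDP1, against 16.9% of all, where the median window was 59.6 kb for the 8 genes and 37.2 kb for all genes. No cluster was replicated at both times, where 16.1% of all clusters in the genome were, a share too low for its absence among 6 clusters to set these genes apart. The clusters replicated at 10 min only lay in intron 2 of TOP1 (chr20:39663946-39664496), intron 14 of TDP1 (chr14:90472979-90473819), intron 3 of TOP1MT (chr8:144410222-144411060) and just past the 3′ end of TOP2A (chr17:38544355-38544874). Those replicated at 20 min only lay around exon 29 of TOP2A, with the midpoint in intron 29 (chr17:38551391-38551985), and intron 1 of TOP1MT (chr8:144415405-144416344).

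The classes rest on weak calls in part. The cluster past the end of TOP2A, whose midpoint was 162 bp beyond it, also held a site in CPT20 replicate 1, and the TOP2A cluster of 20 min also held 1 in CPT10 replicate 1. In each library the best site of a cluster was scored by the smaller −log10 q of its paired peaks. The site in intron 2 of TOP1 had 3.99 and 4.57 in the CPT10 libraries, and that of TDP1 had 3.90 and 2.21. The TOP2A cluster of 20 min had the strongest calls, with 6.89 and 3.31 in the CPT20 libraries and 19.6 in CPT10 replicate 1.

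A broader view of recurrence came from stretches that lay under a peak of the same strand in all 4 libraries. The stretches were chosen after their values were seen. There were 10 in 5 of the 8 windows, against 25.3% of all gene windows with at least 1. TOP2A held 5, TOP3A held 2, and TOP1, TDP1 and TOP1MT held 1 each, while TOP2B, TOP3B and TDP2 held none. This was 1.99 per 100 kb of the 8 windows and 0.74 per 100 kb of all protein-coding windows. Without TOP2A the 7 other windows had 1.08 per 100 kb. The TOP2A stretches in intron 1 and exon 2 are not independent, since the same forward peak covered both in CPT10 replicate 2 and in CPT20 replicate 1. The TOP2A stretch in exon 24 was 13 bp wide, under peaks with a −log10 q of 1.91 and 2.21 in the CPT10 libraries.

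**Figure D5:**
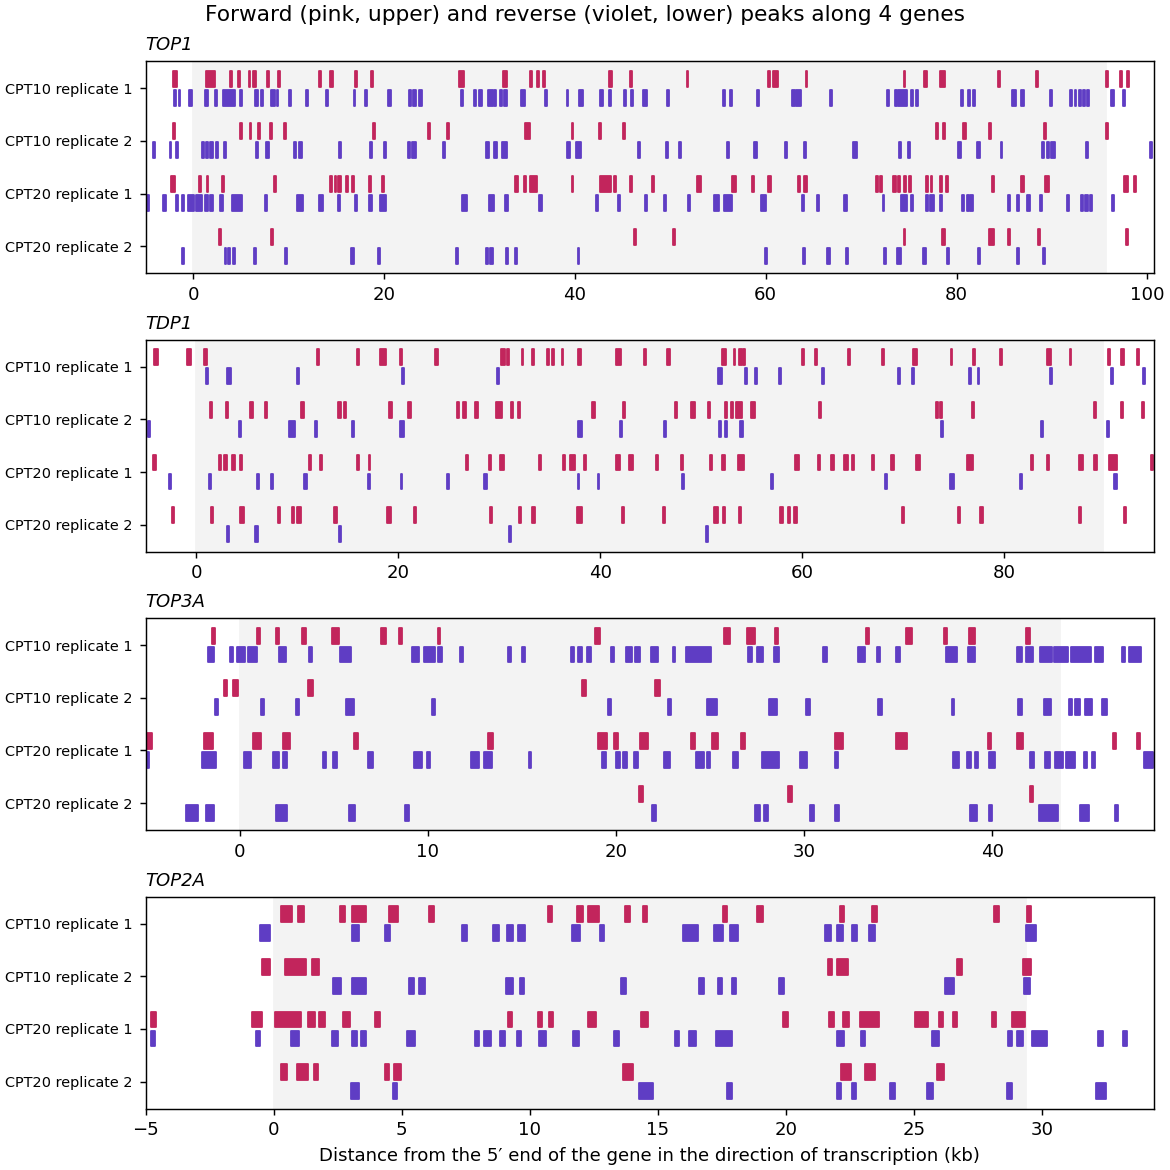
Forward peaks (pink, upper row) and reverse peaks (violet, lower row) along TOP1, TDP1, TOP3A and TOP2A in the 4 treated libraries, by distance in kb from the 5′ end in the direction of transcription; grey marks the gene body and narrow peaks are widened to stay visible. TDP1 has more forward than reverse peaks along its length, TOP3A more reverse than forward peaks, and TOP2A has forward peaks of all 4 libraries within its first kb.

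In TOP2A the forward stretches lay near the start, in intron 1 (chr17:38573631-38573696, 484 bp from the 5′ end) and exon 2 (chr17:38573095-38573184, 1008 bp from it), and in intron 28 (chr17:38551875-38551926). The peaks over the stretch in intron 1 had a fold over the expected height, in the authors' lists, of 11.1, 7.50, 16.1 and 5.90 in the 4 libraries. The reverse stretches lay in intron 4 (chr17:38570905-38571077), with 6.37 to 12.7, and in exon 24 (chr17:38556248-38556260). TOP3A had its reverse stretches at its end, in exon 19 (chr17:18175233-18175511, with 12.0, 5.79, 6.82 and 8.61) and 1400 bp past the gene (chr17:18173271-18173413). TOP1 had a reverse stretch in intron 3 (chr20:39690219-39690341), with 3.32, 5.21, 3.64 and 5.92. TDP1 had a forward stretch in intron 14 (chr14:90475073-90475262), with 4.50, 6.34, 10.8 and 6.97.

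The sequences of 4 of these recurrent places are shown as examples from TOP1, TOP2A and TOP3A, and were not chosen to represent the rest. They are read from the GRCh37 plus strand, 5′ to 3′, and the capitals mark the bases under a peak of that strand in all 4 libraries or, for the cluster, the bases shared by the best sites of the replicates, between flanks of 20 bases.
TOP1 intron 3 reverse stretch: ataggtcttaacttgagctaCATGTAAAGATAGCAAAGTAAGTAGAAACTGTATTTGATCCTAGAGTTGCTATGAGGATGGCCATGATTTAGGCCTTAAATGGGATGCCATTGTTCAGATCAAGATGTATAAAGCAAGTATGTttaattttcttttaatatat
TOP1 intron 2 cluster of 10 min: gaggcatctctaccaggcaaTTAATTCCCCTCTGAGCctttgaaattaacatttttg
TOP2A intron 1 forward stretch: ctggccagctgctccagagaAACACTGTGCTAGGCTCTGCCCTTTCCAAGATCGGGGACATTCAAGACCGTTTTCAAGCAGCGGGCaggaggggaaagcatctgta
TOP3A downstream reverse stretch: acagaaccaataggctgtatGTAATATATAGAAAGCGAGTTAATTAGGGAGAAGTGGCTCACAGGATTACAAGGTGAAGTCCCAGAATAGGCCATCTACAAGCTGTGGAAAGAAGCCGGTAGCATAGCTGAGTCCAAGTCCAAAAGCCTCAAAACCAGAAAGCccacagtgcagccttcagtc

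The bases in capitals were 54.5% G or C in the stretch of intron 1 of TOP2A, where the whole window of the gene had 41.7%. In the stretch of TOP1 the share was 36.6% against 40.5% in its window.

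Further genes were read from lists chosen by function. Earlier results of these data were known at the choice, so the shares called below describe the lists and do not test them. Of 9 genes listed as partners and relatives of the topoisomerases, 2 were denser than their surroundings, against 17.7% of all genes. These were TCEA1, with a log2 ratio of 0.77 (adjusted p = 5.01e-05), and RMI1, a subunit of the complex of TOP3A and BLM, with 0.75 (adjusted p = 0.00128, limma). TCEA1 encodes TFIIS, which helps stalled RNA polymerase II to resume. It is an elongation factor and neither a partner nor a relative of a topoisomerase. In strand balance TDRD3, the partner of TOP3B, had reverse excess (-0.92, adjusted p = 0.0117), whereas SPO11, the meiotic relative of topoisomerases (1.29, adjusted p = 0.0246), and BLM (0.69, adjusted p = 0.0313, limma) had forward excess. TOP3B itself, at -0.62, was not called, and the difference between it and TDRD3 was not tested. Of the 9 genes 2 were called with forward and 1 with reverse excess, against 13.9% of all genes in each direction.

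Of 19 genes that repair topoisomerase adducts and the breaks they leave, 6 were denser than their surroundings, against 17.7% of all genes, and none was less dense, against 7.25%. The median log2 ratio was 0.28, where that of all genes was 0.05. They were the structure-specific nucleases or their subunits ERCC1 (0.69), MUS81 (0.81) and EME1 (0.61), the kinase PRKDC (0.54), the end-resection factor RBBP8 (0.41) and the ligase LIG3 (0.61), with adjusted p values of 0.000188 to 0.0156 (limma). Of the same 19 genes 8 were called in strand balance, against 27.8% of all genes. ATM (1.18), APTX (1.06), ERCC4 (1.10) and LIG3 (0.90) had forward excess and PARP1 (-1.70) and NBN (-1.06) reverse excess, and the other two called had forward excess. PARP1, which senses strand breaks and acts with TDP1, had 5 forward against 28 reverse peaks and 9 against 24 at 10 min, and 10 against 27 and 1 against 12 at 20 min.

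Of 7 genes that remove R loops, 4 were denser than their surroundings, against 17.7% of all genes. The helicase DHX9 had the largest ratio at 1.27 (adjusted p = 1.24e-06), and RNASEH1 (0.73, adjusted p = 0.00879) and the splicing-linked helicase AQR (0.58, adjusted p = 0.000193, limma) were among the others. In strand balance 2 of the 7 were called, among them AQR (0.51, adjusted p = 0.0489, limma), a share near the 27.8% of all genes. RNASEH2B, a subunit of RNase H2, was the only gene of the lists called for start against rest, at 1.04 (SE 0.25, adjusted p = 0.00992, limma). It was called among the 9, 17 and 5 genes tested of the lists, in the order above, a share near the 3.38% of all genes. Its call was lost without the low-count filter (adjusted p = 0.181), with a prior of 0.5 peaks (0.283), with the first 2 kb as start (0.143) and without CPT10 replicate 1 (0.118) or 2 (0.405) or CPT20 replicate 2 (0.116, limma). No gene of any list differed between the times. All strand calls of these lists were lost, as for the 8 genes, without either CPT10 replicate. Of the named genes, BLM lost its strand call without CPT20 replicate 1, and TDRD3, SPO11, LIG3, ERCC4 and AQR lost theirs without CPT20 replicate 2. SPO11 rests on few peaks, with 2, 3, 4 and 0 reverse peaks in the 2 CPT10 and the 2 CPT20 libraries. Relative to the strand ratio of their surroundings ERCC4 (0.27, adjusted p = 0.566) and LIG3 (0.41, 0.282, limma) were no longer called. The other named strand calls held there. Without the low-count filter only those of ATM, PARP1 and APTX held. With a prior of 0.5 peaks those of SPO11, BLM, ERCC4 and AQR were lost. That of ERCC4 was also lost with lists of equal length, and those of BLM and AQR at a −log10 q of at least 3. Against the surroundings the calls of TCEA1, ERCC1, PRKDC, RBBP8, DHX9 and AQR held under every alternative run. Those of EME1 (0.0596), LIG3 (0.162) and RNASEH1 (0.0769) were lost without CPT10 replicate 1, and those of RMI1 (0.0506), MUS81 (0.0566), EME1 (0.0701), LIG3 (0.0999) and RNASEH1 (0.116) without CPT10 replicate 2 (adjusted p, limma). The LIG3 call was also lost without CPT20 replicate 2, without the low-count filter (adjusted p = 0.0812) and with the genome-wide density (0.105, limma). That of RNASEH1 was lost without the filter (0.0520), with 200 kb of surroundings (0.0688) and with the genome-wide density (0.203, limma).

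The genes whose peaks were most like those of TOP1 were DNAH17 on chromosome 17, ENSG00000254732 on chromosome 11, for which the annotation gives no symbol, and HSPA4 on chromosome 5. Likeness was the Euclidean distance over the log2 densities of the 8 lists in 4 libraries, each relative to the density of the list over the genome. The distances were 0.31, 0.34 and 0.42, where the median over all genes was 2.44. As the smallest of all genes compared, they lie below that median by the way they were picked. In TOP1 these log2 densities were 0.92, 1.00, 1.07 and 1.15 for reverse peaks and 0.46, -0.04, 0.79 and -0.09 for forward peaks in the 4 libraries.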

How the data were processed

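END-seq peak lists of 4 treated HCT116 libraries were used, a forward and a reverse list each. Per the submitters' processing notes and the study's methods, the authors trimmed reads with Trim Galore, aligned them to hg19 with Bowtie2, filtered them with SAMtools and called peaks with MACS2 for each library and strand with the untreated library as input; replicates were not pooled. The deposited lists give per peak a score, a linear fold over the expected height, and the p-value and q-value of the summit as −log10. Peak numbers depend on that threshold and on sequencing depth, which is not known from these lists. The score was not used.

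Genes followed GENCODE release 44 mapped to GRCh37. Peaks overlapping a window by at least 1 bp were counted. log2 values with a prior of 2 peaks were fitted over all protein-coding genes with a mean of at least 5 peaks per library, by limma 3.58.1 with eBayes and a trend on peak number, time as a term for the last 3 values, and Benjamini-Hochberg adjustment at 0.05. Paired sites were built with bedtools 2.31.1. Each fit was tested on simulated negative binomial counts with a fixed dispersion, drawn independently for each library. Of 200 genes changed 4-fold, 91% were recovered for time, 90.5% for strand and 100% for surroundings, and 48.2% of 199 for start. False calls numbered 14 for time, 8 for strand, 5 for start and 9 for surroundings. Unchanged genes were simulated without strand imbalance and at the density of their reference region, so these rates need not hold for the real lists. The changed genes were drawn from those with more peaks on average than TOP3B and TDP2 had. Changes under 4-fold, such as those of the 8 genes here, were not simulated. Replicates are the submitters' biological replicates. The study's methods list the libraries under 2 experiments, each with untreated cells and both times. The labels do not tie the replicate numbers to these experiments, so the block on the number is an alternative, given where it changes a call. The genes of interest were given by name. Members of all lists were chosen with earlier results of these data known. All 8 genes are named, with the sites replicated within a time (at most 3 a gene by the worst rank of their −log10 q), list genes past the threshold (at most 6 a list and comparison) and the 3 genes nearest to TOP1. Some of the sequences and 1 gene of these lists are not reported here.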

Additional observations from a re-analysis of the deposited data

How the results depend on the processing

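Of 368 values of single genes under the alternatives, 309 kept their direction and side of the threshold, 19 lost a call, 13 gained one and 27 changed sign. The calls of TOP1, TOP2A and TOP3A against their surroundings and the signs of the 4 strand calls held under every alternative run; the strand calls themselves did not. The number of genes called for time moved from 0 to 1 without the low-count filter and to between 0 and 214 with one library left out. For strand it was 1493, with 1 of the 8 genes, without the filter, and 0 to 6726, with 0 to 4 of the 8, with one library left out. For start it was 0 without the filter, with a prior of 0.5 peaks or with the first 2 kb as start, 948 with 2 of the 8 at a −log10 q of at least 3, and 1 to 1433, with 0 to 2 of the 8, with one library left out. For the surroundings it was 2291 to 7188, with 3 to 7 of the 8, with one library left out. The causes were not tested.

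Signs changed for values below the threshold. For time these were TDP2 at a −log10 q of at least 3 (0.19) and TOP2B with lists of equal length (-0.20), and with one library left out TOP1MT ran from -0.18 to 0.73, TOP3A from -0.094 to 0.71, TOP3B from -1.20 to 0.56 and TDP2 from -0.40 to 0.32. For strand these were TOP2A at a −log10 q of at least 3 (0.16) and with equal lists (0.13), TOP3B relative to its surroundings (0.016, an alternative chosen after seeing the data) and, with one library left out, TOP1MT from -0.065 to 0.62 and TOP2A from -0.47 to 0.11. For start these were TOP1MT (-0.032) and TOP3A (-0.075) at a −log10 q of at least 3, TOP2B (-0.041), TOP3A (-0.11), TDP1 (-0.045) and TDP2 (0.081) with equal lists, TOP2B (-0.0011) and TDP2 (0.34) with the first 2 kb and, with one library left out, TDP2 from -0.47 to 0.45. For the surroundings these were TOP3B at a −log10 q of at least 3 (0.15), with equal lists (0.17), with the genome-wide density (0.0080) and, with one library left out, from -0.39 to 0.33, and TOP1MT with the genome-wide density (0.39).

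The log2 ratio of paired sites at 20 over 10 min, -0.24, became 0.087 at a −log10 q of at least 3 and 0.64 with equal lists, and spanned -2.72 to 0.72 with one library left out. Clusters of 10 min only went from 4 to 1 at a −log10 q of at least 3 and to 0 with equal lists, and those of 20 min only from 2 to 1 at that threshold or with a gap under 50 bp. With the replicate block the count of genes called was 0 for time, 6337 for strand, 700 for start and 6220 for the surroundings, and TOP1MT (adjusted p = 0.0208) and TDP1 (0.0258, limma) passed against their surroundings, while no call was lost. Paired sites within the pairing gave 0.058 in replicate 1 and -1.77 in replicate 2. Differences between the replicates correlated between the times at 0.26 for time, 0.08 for strand, 0.03 for start and 0.09 for the surroundings.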
